A study of Mus musculus with 6 samples.

Results

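The genes that handle irinotecan and its active form SN38 were followed in mouse colorectal cancer organoids exposed to chemotherapy. The set was chosen by name and comprises 10 genes, beside 24190 genes in the count table: the carboxylesterases Ces2a, Ces2c, Ces2e and Ces2g, the glucuronosyltransferases Ugt1a1 and Ugt1a6a, and the efflux transporters Abcg2, Abcb1a, Abcb1b and Abcc2. Of the 10 genes, 9 had a row of counts and 4 had enough reads to be tested (Ces2g, Abcg2, Abcb1a and Abcb1b). Ugt1a6a had no row, so its level was not analysed here.

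RNA sequencing was performed on MTO54, an AKP organoid line derived from a primary tumor of a mouse model with compound engineered alterations, in 3 control and 3 Folfiri samples. All samples share this genotype and come from 1 line, so they represent 1 tumor, cultured without stroma. Organoids were split to single cells and seeded in a basement membrane gel (BME) in complete stem cell medium. After 2 days, the Folfiri group was kept for 2 days in medium with SN38 at 100 nM and 5FU at 50 μg/μl (as written in the protocol). The control group received the same medium with neither drug. The methods and labels give this treatment time, whereas a figure legend of the study gives a longer one. The study calls the samples biological replicates, but nothing says whether they were separate passages, so p values measure the spread between these samples.

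Irinotecan is a prodrug. Carboxylesterases cleave it to SN38, which traps topoisomerase I on DNA. UGT1A enzymes of the liver and gut attach glucuronic acid to SN38 and so inactivate it, and bacterial or lysosomal β-glucuronidase can remove that group again. ABCG2, P-glycoprotein (the product of Abcb1a and Abcb1b in the mouse) and ABCC2 pump irinotecan, SN38 or its glucuronide out of cells. Folfiri was given here with SN38 itself, for which the carboxylesterase step is not needed.

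Counts on genes summed to between 22103591 and 30098210 reads per sample. Levels are TMM-normalized CPM (counts scaled to a common library size), and fold changes are Folfiri over control from edgeR's quasi-likelihood test on the 14692 genes past its expression filter. That filter asked for about 0.354 CPM, or 10 reads in a library of median size, in 3 samples. The background of change was high: 79.1% of tested genes passed a Benjamini-Hochberg adjusted p of 0.05, 40.3% higher and 38.8% lower in Folfiri. TMM factors were 0.880 to 0.966 in control and 1.10 to 1.11 in Folfiri samples. Scaling by total counts alone moved the median log2 fold change of tested genes from 0.02 to 0.30 and the higher share of calls from 51.0% to 63.3%. Control replicate 1 stood apart from the other controls, with a chi-square per degree of freedom of 18.3 and 17.2 against them, where those 2 differed by 3.16. Folfiri replicate 3 differed from the other Folfiri samples by 9.04 and 8.74, where those 2 differed by 2.82.

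Among the genes in the set, 3 were higher in Folfiri (Ces2g, Abcg2 and Abcb1b), none was lower, and Abcb1a had no call. The 40.3% of all tested genes that rose is the rate to read these calls against. Ces2g and Abcg2 each had 1 of 3 control samples past the filter level and so entered the test through the Folfiri group, which leaves Abcb1b and Abcb1a as the genes measured above that level in both groups. The remaining genes with a row (Ces2a, Ces2c, Ces2e, Ugt1a1 and Abcc2) had at most 8 reads in any sample and are described by counts.

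Sequence sharing decides how much of each gene can be counted, and was examined first. The mouse Ugt1a locus on chromosome 1 makes each of its enzymes by joining an own first exon to the same downstream exons. Each of the 9 annotated Ugt1a genes has a protein-coding transcript of 5 exons. Exons 2 to 4 have the same coordinates in each of the transcripts taken, 1 per gene. Ugt1a1 (ENSMUSG00000089960, chr1:88211959-88218997, plus strand, GRCm38) has a first exon of 913 bases, which is followed by shared exons of 132, 88, 220 and 871 bases. Ugt1a6a (ENSMUSG00000054545) starts further upstream, at chr1:88134809-88218997. The junctions of the 2 genes with the shared part show the point from which their transcripts can no longer be told apart, with 45 bases of the own first exon in lower case and 45 bases of the shared second exon in capitals.
Ugt1a1: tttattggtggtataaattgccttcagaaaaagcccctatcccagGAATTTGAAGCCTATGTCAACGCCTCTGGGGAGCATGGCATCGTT
Ugt1a6a: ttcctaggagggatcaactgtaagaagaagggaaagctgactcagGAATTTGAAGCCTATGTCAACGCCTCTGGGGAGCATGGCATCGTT

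Of 2224 exonic bases of Ugt1a1, 385 were covered by no other annotated gene on either strand, because an antisense gene, Gm20528, lies over part of the first exon too. Ugt1a6a had 2142 such bases of 4312. In windows of 50 bases, 80.2% of the Ugt1a1 transcript and 97.7% of the Ugt1a6a transcript occurred word for word in a transcript of another gene. The same share was 18.6% for Abcb1a, 19.6% for Abcb1b, 22.2% for Ces2a, 42.2% for Ces2c, 3.36% for Ces2e, 4.02% for Ces2g, 0.313% for Abcc2 and 0 for Abcg2.

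How the table treats such bases was worked out from its rows. Of 765 annotated genes with no exonic base of their own, 1 had a count. None of 282 genes did whose own bases were lost only when genes of both strands were considered, whereas 23126 of 47689 genes with at least 200 own bases did (48.5%). The table thus behaves as one in which reads over more than 1 gene were left out and strand was not used, and in such a table the shared Ugt1a exons contribute to no Ugt1a row.

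**Figure D1:**
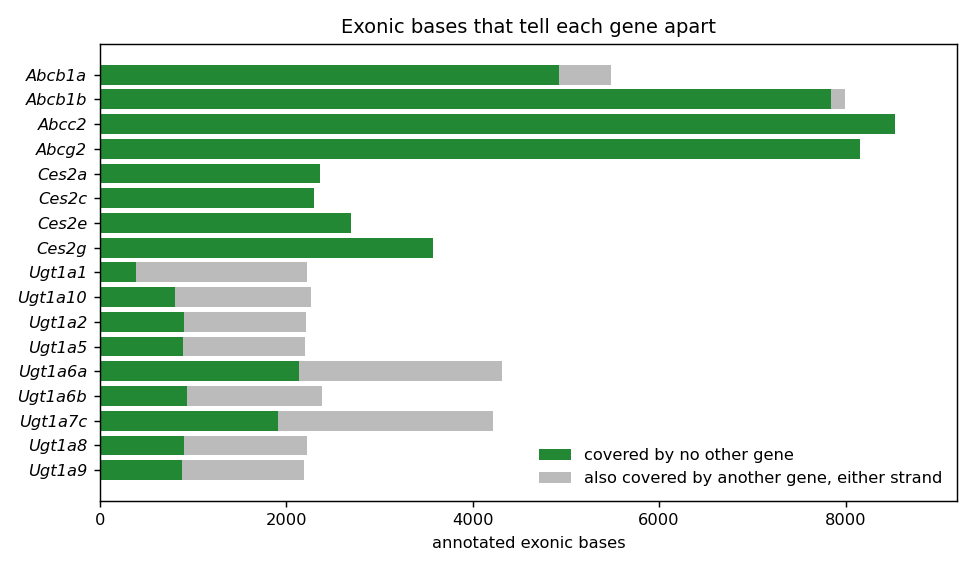
Annotated exonic bases (x axis) of the SN38 handling genes and of all Ugt1a genes, split into bases covered by no other gene (green) and bases also covered by another gene on either strand (grey). Ugt1a1 keeps 385 of 2224 bases, whereas Abcg2, Abcc2 and the Ces2 genes keep all of theirs.

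The activating carboxylesterases were nearly silent except for Ces2g, which rose in Folfiri. Ces2g (ENSMUSG00000031877, chr8:104961718-104969537, plus strand) encodes a carboxylesterase of the family that cleaves irinotecan. It had 17, 3 and 5 reads in the control samples and 68, 47 and 61 in the Folfiri samples. These correspond to 0.612, 0.120 and 0.257 CPM in control and 2.28, 1.52 and 1.85 CPM in Folfiri. The groups did not overlap, and the highest control sample was replicate 1.

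The Ces2g mean went from 0.330 ± 0.254 to 1.88 ± 0.383 CPM (mean ± SD of 3 samples), which is 2.43 on the log2 scale (SE 0.39, edgeR adjusted p = 0.000163). Only 1 of 3 control samples was past the filter level, so the gene entered the test through the group where it was high. Without control replicate 1 the log2 fold change was 3.35, which moves the fold by more than any other omission. Per kilobase of exon, Ces2g lay at the 4.83 percentile of tested genes in control and at the 14.9 percentile in Folfiri, so it remained a weakly expressed gene after it rose.

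The other Ces2 genes in the set lie beside Ces2g on chromosome 8. Ces2a (chr8:104734003-104741634) had no read in control and 0, 1 and 1 in Folfiri, and Ces2c (chr8:104847068-104854483) had no read in control and 1 in each Folfiri sample. Ces2e (chr8:104926260-104934672) had 1, 0 and 0 reads in control and 0, 2 and 2 in Folfiri, a ratio of 3.08 with a 95% exact counting interval of 0.305 to 152. A total of 0 reads over the 3 samples of a group allows up to 0.0415 CPM in control and 0.0320 CPM in Folfiri (3 counts over the group, counting error only). A difference in these 3 genes was not detectable at this depth.

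Because paralogs can split reads, the family was summed as well. The 4 Ces2 genes together went from 0.342 ± 0.274 to 1.98 ± 0.334 CPM, a log2 fold change of 2.45 (SE 0.38, edgeR adjusted p = 0.000147). Adding the 3 other Ces2 genes with rows gave 2.44 (SE 0.40, edgeR adjusted p = 0.000186). Without control replicate 1 these sums changed by 3.42 and 3.47 on the log2 scale. Ces2g made up nearly all reads of these sums, so they largely restate its change, and only 1 of 3 control samples was past the filter level in each. Between groups, the log2 share of Ces2g among the 4 genes differed by -0.05 (exact two-sided permutation test over samples, p = 0.2, 0.2 adjusted over 2 ratios, smallest possible 0.1).

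The 250 bases before the RefSeq start of Ces2g (chr8:104961468-104961717, plus strand, GRCm38.p6) are shown because this was the carboxylesterase that rose. Motifs searched on both strands were the core of the dioxin response element to which AHR binds (GCGTG), the AP-1 site (TGANTCA), the GC box (GGGCGG), the CCAAT box (CCAAT) and the TATA box (TATAAA). Capitals mark the matches, here 1 CCAAT box read on the minus strand.
Ces2g promoter: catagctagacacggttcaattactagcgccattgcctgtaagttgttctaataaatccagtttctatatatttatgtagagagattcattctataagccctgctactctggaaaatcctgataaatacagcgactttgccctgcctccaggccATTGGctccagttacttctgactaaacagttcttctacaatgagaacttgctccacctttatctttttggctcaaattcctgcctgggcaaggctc

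A CCAAT box occurred in 33.8% of 32851 RefSeq promoter windows of this length. The GCGTG core occurred in 28.2%, the AP-1 site in 6.75%, the GC box in 32.7% and the TATA box in 12.4%. The windows of all 10 genes were searched and none held GCGTG, which says only that these letters are not in this stretch.

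The inactivating UGT1A step could hardly be read in these data. Ugt1a1, the enzyme known for SN38 glucuronidation, had no read in the control samples and 2, 1 and 0 reads in the Folfiri samples, over the 385 bases in which it can be counted. The groups overlapped at 0. Ugt1a6a and the other Ugt1a genes (Ugt1a2, Ugt1a5, Ugt1a6b, Ugt1a7c, Ugt1a8, Ugt1a9 and Ugt1a10) had no row of counts. Their levels were therefore not analysed here, and no sum over the locus was made. The table held no row at 0 in all samples, and whether these genes had any read of their own was not determined. A low count of Ugt1a1 is therefore a statement about its own first exon and not about UGT1A activity.

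**Figure D2:**
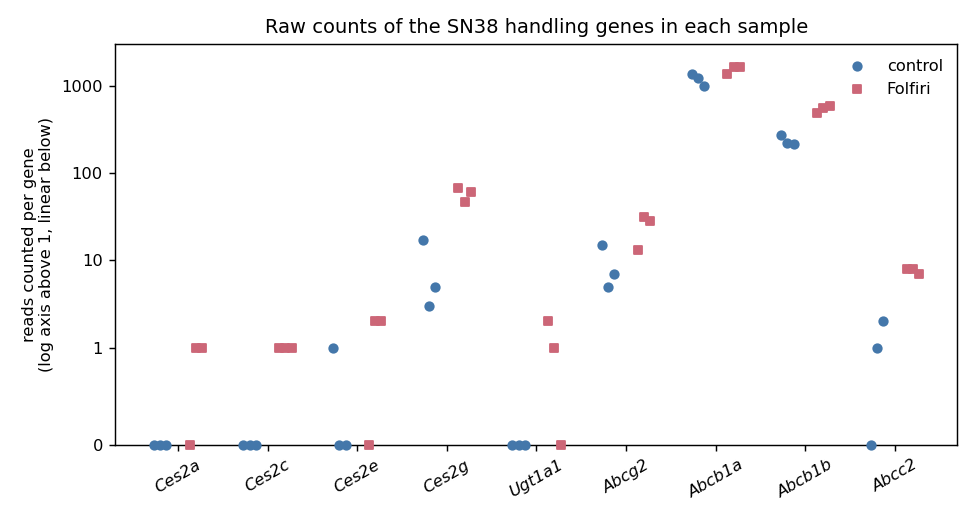
Reads counted per gene (y axis, logarithmic above 1 and linear below) in each control (blue circles) and Folfiri sample (red squares) for the 9 genes with a row. Abcb1a and Abcb1b stand far above the others, Ces2g and Abcc2 are separated between groups at low counts, and Abcg2 overlaps.

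Among the efflux genes of the set, the P-glycoprotein pair held nearly all reads, and within it Abcb1b rose while Abcb1a gave no call. Abcb1a (ENSMUSG00000040584, chr5:8660077-8748575, plus strand) and Abcb1b (ENSMUSG00000028970, chr5:8798147-8866315, plus strand) are neighbours that encode the same kind of pump. Their annotated coding sequences are 3828 bases each, and 3365 of 3813 aligned bases were identical (88.3%), with a longest identical run of 338 bases. A gene of the opposite strand overlaps each of them (Gm42686 and Gm5106), and 4927 of 5480 exonic bases of Abcb1a and 7847 of 7990 of Abcb1b were free of other genes. The stretch of 60 coding bases in which the 2 sequences are least alike, positions 1913 to 1972 of Abcb1a and 1922 to 1981 of Abcb1b, shows what tells their reads apart, with the 25 bases that differ in capitals.
Abcb1a: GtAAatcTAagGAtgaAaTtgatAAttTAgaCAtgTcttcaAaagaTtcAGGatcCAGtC
Abcb1b: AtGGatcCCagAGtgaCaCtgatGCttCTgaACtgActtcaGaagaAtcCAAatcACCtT

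Abcb1b had 275, 223 and 213 reads in control and 481, 549 and 577 in Folfiri, or 9.90, 8.92 and 10.9 CPM against 16.1, 17.7 and 17.5 CPM. The groups were separate, with each Folfiri sample above each control sample. The mean went from 9.92 ± 1.02 to 17.1 ± 0.863 CPM (mean ± SD of 3 samples), which is 0.79 on the log2 scale (SE 0.11, 1.73-fold, edgeR adjusted p = 5.19e-05).

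Abcb1a, the more abundant of the pair, had 1344, 1237 and 988 reads in control and 1351, 1639 and 1627 in Folfiri, or 48.4, 49.5 and 50.8 CPM against 45.3, 52.9 and 49.4 CPM. The Folfiri samples lay on both sides of the controls. The mean was 49.6 ± 1.21 CPM in control and 49.2 ± 3.80 CPM in Folfiri, a log2 fold change of -0.01 (SE 0.08, edgeR adjusted p = 0.911). The value was 0.27 with total counts only (edgeR adjusted p = 0.0135), against the shift of the median to 0.30 under that scaling.

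The balance within the pair does not depend on scaling between libraries. Abcb1b held 17.0%, 15.3% and 17.7% of the reads of both genes in control and 26.3%, 25.1% and 26.2% in Folfiri. The log2 ratio of Abcb1a over Abcb1b was 2.32 ± 0.13 in control and 1.52 ± 0.05 in Folfiri, lower in 3 of 3 Folfiri samples than in any control, a difference of -0.80 (exact two-sided permutation test over samples, p = 0.1, the smallest possible with 3 against 3, and 0.2 adjusted over 2 ratios). Per kilobase of exon, Abcb1a was 7.33 ± 0.685 times as abundant as Abcb1b in control and 4.19 ± 0.144 times in Folfiri. Summed over both genes, the level was 59.5 ± 1.97 CPM in control and 66.3 ± 4.62 CPM in Folfiri, a log2 fold change of 0.16 (SE 0.08) that did not pass (edgeR adjusted p = 0.0820). The sum passed without Folfiri replicate 1, at 0.21 (edgeR adjusted p = 0.0480). In bulk samples, a change per cell cannot be told apart from a change in the share of cells that express a gene.

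**Figure D3:**
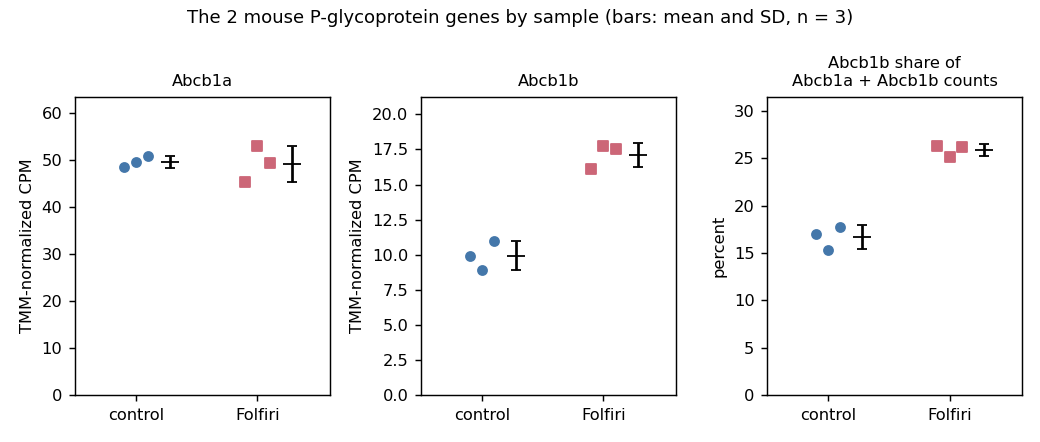
TMM-normalized CPM of Abcb1a and Abcb1b and the percent of reads of both genes that fell on Abcb1b (y axes, from 0) in each control (blue circles) and Folfiri sample (red squares), with the mean and SD of 3 samples beside them. Abcb1a overlaps between groups, whereas Abcb1b and its share are higher in each Folfiri sample.

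The 250 bases before the RefSeq start of Abcb1b (chr5:8797897-8798146, plus strand, GRCm38.p6) held 2 CCAAT boxes and 1 GC box, in capitals. The window had a GC content of 52.8%, against 42.0% in the Ces2g window.
Abcb1b promoter: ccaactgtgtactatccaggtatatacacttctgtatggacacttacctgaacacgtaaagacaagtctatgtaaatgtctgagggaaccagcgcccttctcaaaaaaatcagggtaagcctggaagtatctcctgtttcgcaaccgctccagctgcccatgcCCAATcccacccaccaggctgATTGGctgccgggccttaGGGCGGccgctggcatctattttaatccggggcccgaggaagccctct

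Abcg2, the breast cancer resistance protein and a known SN38 exporter, was low in both groups, and its call depended on single samples. Abcg2 (ENSMUSG00000029802, chr6:58584523-58695676, plus strand) had 15, 5 and 7 reads in control and 13, 31 and 28 in Folfiri, or 0.540, 0.200 and 0.360 CPM against 0.436, 1.0 and 0.850 CPM. Folfiri replicate 1 lay below control replicate 1, so the groups overlapped.

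The Abcg2 mean went from 0.367 ± 0.170 to 0.762 ± 0.292 CPM, a log2 fold change of 1.03 (SE 0.41, edgeR adjusted p = 0.0392). Only 1 of 3 control samples was past the filter level. The call was lost without control replicate 2 (0.71, edgeR adjusted p = 0.149), without control replicate 3 (1.0, edgeR adjusted p = 0.0730), without Folfiri replicate 2 (0.80, edgeR adjusted p = 0.140) and without Folfiri replicate 3 (0.95, edgeR adjusted p = 0.111). It was also lost with DESeq2's Wald test (1.04, adjusted p = 0.0791).

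Abcc2, or MRP2, which exports SN38 glucuronide, was close to absent. Abcc2 (ENSMUSG00000025194, chr19:43782192-43840740, plus strand) had 0, 1 and 2 reads in control and 8, 8 and 7 in Folfiri. All Folfiri samples were above all controls, though the gene missed the expression filter. The pooled 3 and 23 reads gave a ratio of 5.90 with a 95% exact counting interval of 1.78 to 30.7. In a fit without an expression filter, in which 52.7% of all genes were called and 27.2% were called higher, its log2 fold change was 2.41 (edgeR adjusted p = 0.00889).

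**Figure D4:**
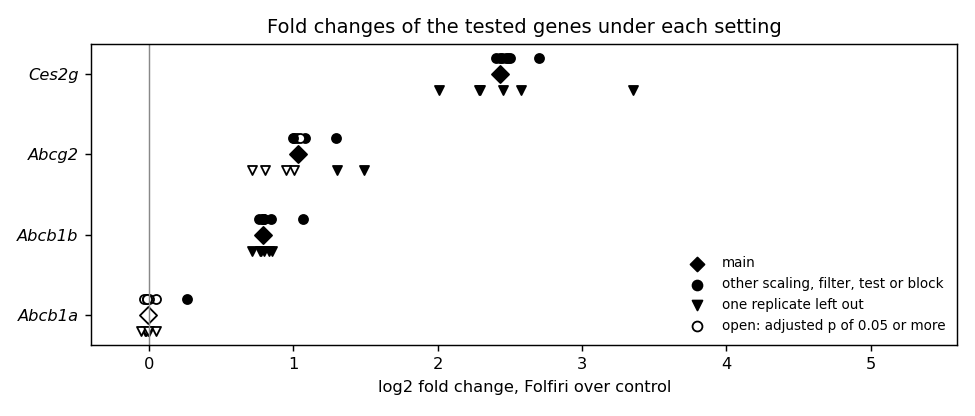
Log2 fold change (x axis) of the 4 tested genes in the reported fit (diamonds), under other scalings, filters, tests or the replicate block (circles), and with each replicate left out (triangles). Filled symbols have an adjusted p under 0.05 and open symbols do not: Ces2g and Abcb1b are filled under each setting shown, Abcg2 under some, and Abcb1a only with total counts.

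The rest of the pathway was described from 73 further symbols in lists by role, of which 58 had a row. No gene among the other carboxylesterases could be tested: 11 of 16 symbols had a row, with a summed level of 0 to 0.108 CPM in control and 0.182 to 0.291 CPM in Folfiri samples. Among the other UDP-glucuronosyltransferases, 9 of 17 had a row, 3 passed the filter and all 3 were called higher, as were 40.3% of all tested genes. None of them had more than 1 control sample past the filter level, so each entered the test through the Folfiri group and their count supports nothing about the list. In the fit without an expression filter each was called higher as well, as were 27.2% of all genes. These genes were picked by the filter, so that fit adds no support for the list either.

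These 3 are UGT2B enzymes, which glucuronidate steroids and other lipophilic molecules. Ugt2b34, with 1 of 3 control and 3 of 3 Folfiri samples past the filter level, went from 0.350 ± 0.174 to 1.25 ± 0.519 CPM (log2 fold change 1.79, SE 0.41, edgeR adjusted p = 0.00221). Ugt2b1 had no read in control and 14, 17 and 20 reads in Folfiri, at least 13.1-fold higher against the limit of 3 counts over the control group. Ugt2b5 had 1, 0 and 1 reads in control and 11, 16 and 11 in Folfiri, a ratio of 14.6 (95% exact counting interval 3.78 to 125). Ugt2b1 and Ugt2b5 were named after their values were seen.

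Of the genes that supply or cleave glucuronic acid, 3 of 4 rose while 1 fell, where 40.3% and 38.8% of all tested genes did. By level per kilobase in control, Ugp2, Ugdh and Gusb lay at the 92.9, 71.3 and 71.0 percentiles of tested genes. Slc35d1 lay at the 21.9 percentile. The median log2 fold change of these 4 was 0.28, against 0.02 over all tested genes. Slc35d1, which carries UDP-glucuronic acid into the endoplasmic reticulum where UGT enzymes act, rose from 8.47 ± 0.903 to 18.7 ± 1.43 CPM (log2 fold change 1.14, SE 0.11, edgeR adjusted p = 5.04e-06). Ugdh, which makes UDP-glucuronic acid, rose from 90.2 ± 4.63 to 110.0 ± 0.0975 CPM (log2 fold change 0.29, edgeR adjusted p = 0.00243).

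Ugp2, which makes the UDP-glucose that UGDH uses, fell from 203.5 ± 15.0 to 155.5 ± 3.60 CPM (log2 fold change -0.39, edgeR adjusted p = 0.000634), a call lost with total counts only (-0.11, edgeR adjusted p = 0.112). Gusb, the β-glucuronidase that can release SN38 again, rose from 61.0 ± 7.57 to 73.8 ± 2.12 CPM (log2 fold change 0.27, edgeR adjusted p = 0.0179). The Gusb call was lost without control replicate 2, control replicate 3 or Folfiri replicate 3 (edgeR adjusted p = 0.0784, 0.0926 and 0.0540).

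Other efflux transporters mostly gave no call, and Abcc1 and Abcc3 were more abundant than Abcb1a. Of 8 genes, 7 were tested, 1 rose, none fell and the median log2 fold change was 0.14, against 40.3% higher, 38.8% lower and a median of 0.02 over all tested genes. Abcc5, an exporter of cyclic nucleotides and nucleotide analogs, was the gene that rose, from 41.5 ± 4.56 to 63.8 ± 2.63 CPM (log2 fold change 0.62, SE 0.09, edgeR adjusted p = 8.45e-05). Abcc1 (MRP1) was at 191 ± 13.8 CPM in control and 210.5 ± 9.96 CPM in Folfiri without passing (log2 fold change 0.14, edgeR adjusted p = 0.111), although it passed at 0.42 with total counts only and at 0.20 with upper quartile scaling.

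Abcc3 (MRP3), an exporter of glucuronides at the basolateral membrane, was at 157 ± 2.48 CPM in control and 145 ± 12.5 CPM in Folfiri (log2 fold change -0.11, edgeR adjusted p = 0.207), and at 0.16 with total counts only. Abcc4 had no call (22.1 ± 8.02 and 29.2 ± 2.56 CPM, log2 fold change 0.40, edgeR adjusted p = 0.0904), but passed without control replicate 1, at 0.74 (edgeR adjusted p = 1.7e-05), with the replicate block, with no expression filter and with total counts only. Per kilobase of exonic bases that no other gene covers, the levels in control samples ran from Abcc3 (27.6 CPM per kilobase) and Abcc1 (12.6) through Abcb1a (10.1), Abcc5 (3.89) and Abcc4 (3.45) to Abcb1b (1.27), Ces2g (0.0923), Abcg2 (0.0450) and Abcc2 (0.00558). In Folfiri samples the order was Abcc3 (25.5), Abcc1 (13.9), Abcb1a (9.98), Abcc5 (5.97), Abcc4 (4.56), Abcb1b (2.18), Ces2g (0.527), Abcg2 (0.0935) and Abcc2 (0.0289). Ces2g is the carboxylesterase in this order, and the efflux genes Abcc10, Abcc6, Abcb4 and Abcb11 were left out of it. Abcc10 (1.06 in control and 0.913 in Folfiri) lies between Abcb1b and Ces2g.

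Uptake transporters and CYP3A enzymes, which oxidize irinotecan to inactive products, were represented by few genes. Both tested uptake genes rose, as 40.3% of all tested genes did: Slco2a1, a prostaglandin transporter, from 28.4 ± 6.10 to 55.9 ± 1.75 CPM (log2 fold change 0.97, edgeR adjusted p = 3.96e-05) and Slco4a1 from 12.1 ± 1.35 to 18.8 ± 2.41 CPM (log2 fold change 0.64, edgeR adjusted p = 0.000674). Slco1a1, Slco1a4 and Slco1b2, of the family of hepatic uptake carriers, had at most 2 reads in any sample.

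Cyp3a13, a CYP3A gene expressed in the mouse gut, rose from 4.88 ± 0.523 to 16.2 ± 0.392 CPM (log2 fold change 1.74, SE 0.12, edgeR adjusted p = 2.66e-07). Por, the reductase that feeds electrons to cytochromes P450, fell from 335 ± 35.8 to 178 ± 2.26 CPM (log2 fold change -0.91, edgeR adjusted p = 3.41e-06). Cyp3a11, the major hepatic form, had 1 read in 2 samples and none in the others.

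**Figure D5:**
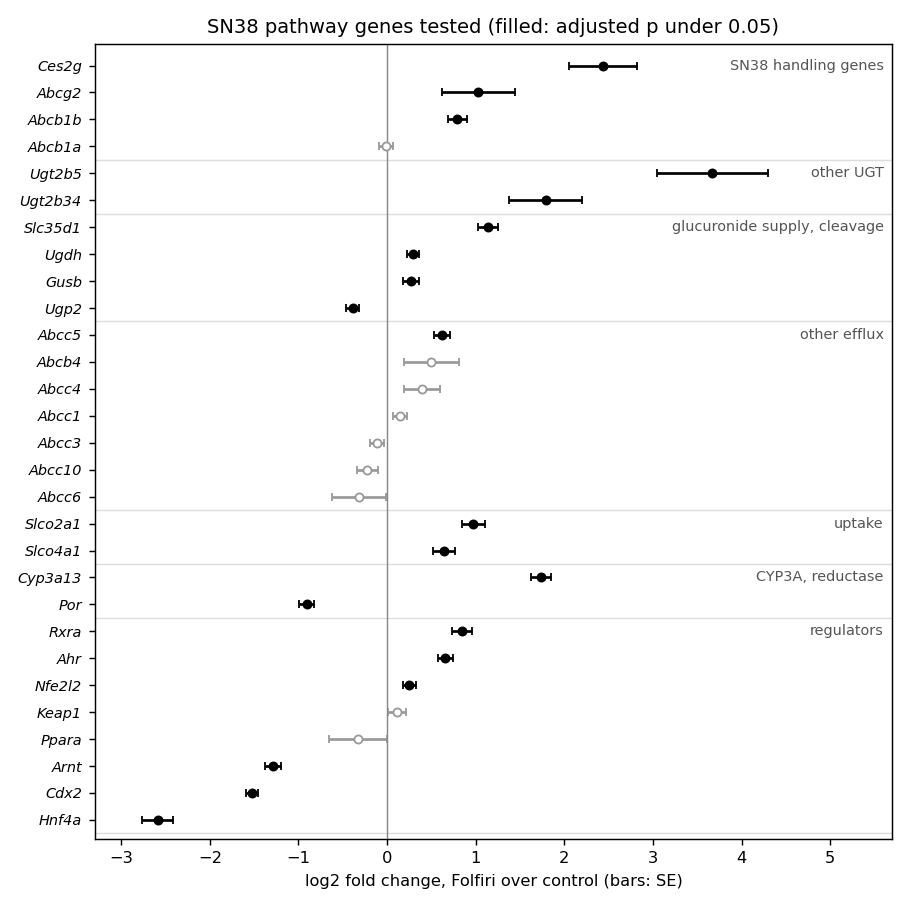
Log2 fold change of Folfiri over control with SE (x axis) for tested genes of the set and of the pathway lists, grouped by role. Filled points have an adjusted p under 0.05 and open grey points do not; Ugt2b1, with no read in control, is left out.

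Of 8 tested regulators of these genes, 3 were higher and 3 lower, shares near the 40.3% and 38.8% of all tested genes, with a median log2 fold change of -0.11. Ahr, the aryl hydrocarbon receptor, rose from 50.0 ± 1.04 to 78.9 ± 8.06 CPM (log2 fold change 0.66, edgeR adjusted p = 3.86e-05). Arnt, its DNA-binding partner, fell from 90.8 ± 8.49 to 37.1 ± 2.59 CPM (log2 fold change -1.29, edgeR adjusted p = 3.91e-07). Rxra, the partner of the xenobiotic receptors, rose from 14.6 ± 2.08 to 26.4 ± 1.34 CPM (log2 fold change 0.85, edgeR adjusted p = 3.67e-05).

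The xenobiotic receptors themselves were near 0. Nr1i2, the pregnane X receptor, had 1 read in control replicate 1 and none elsewhere, and Nr1i3, the constitutive androstane receptor, had none in control and 1, 2 and 2 in Folfiri. Nfe2l2, which encodes the oxidative stress factor NRF2, rose from 85.7 ± 5.79 to 102 ± 2.55 CPM (log2 fold change 0.25, edgeR adjusted p = 0.00815), a call lost without control replicate 3 (0.20, edgeR adjusted p = 0.0572).

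Transcription factors of gut and liver epithelium were lower. Hnf4a fell from 12.5 ± 2.24 to 2.09 ± 0.299 CPM (log2 fold change -2.59, SE 0.17, edgeR adjusted p = 2.84e-07) and Cdx2 from 157 ± 6.88 to 54.5 ± 0.753 CPM (log2 fold change -1.53, edgeR adjusted p = 1.83e-08).

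The epithelial label was met by Epcam, Cdh1, Vil1 and the keratins. The summed level of the 8 markers was 5731 to 6638 CPM in control and 4645 to 4817 CPM in Folfiri samples. Of 7 tested, 1 was higher and 4 were lower in Folfiri, where 40.3% and 38.8% of all tested genes were. Cdx1 missed the filter, with 19, 9 and 10 reads in control and 0, 1 and 0 in Folfiri.

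The summed level of the enterocyte markers was higher in the Folfiri samples. It was 6.99 to 7.99 CPM in control and 17.8 to 20.5 CPM in Folfiri, with 7 of 10 symbols listed, 3 tested and 2 higher (Fabp2, log2 fold change 1.47, and Mttp, 1.59), against 40.3% of all tested genes. Most of the sum was Mttp (5.18 CPM in control and 15.6 CPM in Folfiri). Krt20 was at 1.44 and 1.31 CPM without a call, and the defining enzyme gene Alpi had at most 3 reads in any sample. Fibroblast markers summed to 1.08 to 1.44 CPM in control and 1.97 to 2.41 CPM in Folfiri, with Col1a2 and Col3a1 at 2 reads or fewer. Of the 3 tested, Dcn (2, 0 and 0 reads in control, 19, 26 and 20 in Folfiri) and Pdgfra (0.397 and 1.15 CPM) were higher, and Col1a1 (0.842 and 0.301 CPM) was lower, against 40.3% and 38.8% of all tested genes. Immune markers summed to 21.3 to 26.0 and 21.2 to 22.4 CPM, nearly all from Cd68, while Ptprc rose from 0.396 to 1.06 CPM (log2 fold change 1.39, edgeR adjusted p = 0.000479). Dcn and Ptprc, with 0 and 1 of 3 control samples past the filter level, entered the test through the Folfiri group, and Col1a1, with 1 of 3 Folfiri samples past it, through the control group. Lyz2 and Tyrobp had 2 reads or fewer in any sample. Endothelial markers summed to 72.2 to 125 and 65.5 to 76.2 CPM, nearly all from Cdh5, and hepatocyte markers to 2.16 to 3.03 and 1.03 to 1.48 CPM. The part of these cell types in the changes above was not tested.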

How the data were processed

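RNA of 3 control and 3 Folfiri samples of MTO54 organoids was sequenced after poly(A) selection. The authors aligned reads to GRCm38/mm10 with STAR 2.5.2 and counted them per gene with Rsubread on GENCODE vM25, and the deposited values are raw counts per gene, with no normalization. Their settings for strand and for reads over several genes are not given in the sources used here, so these were read off the table against GENCODE vM21, an earlier release on the same build, whose exons may differ from those counted on. It gave symbols and exons for 24168 of 24190 rows.

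Counts were analysed with edgeR 4.0.16 in R 4.3.3: default expression filter, TMM scaling, glmQLFit and glmQLFTest, and Benjamini-Hochberg adjustment over the 14692 genes tested, with a threshold of 0.05. CPM are TMM-normalized. Ratios within a sample took 0.5 added to each count and an exact permutation test (scipy 1.17.1). Samples were grouped by their titles. Alternatives were 3 other scalings, 2 other filters, DESeq2 1.42.0, a replicate block and each replicate left out in turn. Of 200 changed genes simulated on these libraries, 178 were recovered, with 11 false calls among 14427 genes. Far fewer genes changed in that simulation than the 79.1% called here, and no composition shift between groups was built in. It checks that the code runs as meant and gives no error rates for these data.

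Total counts of 22103591 to 30098210 per sample set the precision, and intervals and limits cover counting error only. Sequences came from GENCODE vM21 transcripts and from RefSeq promoters of GRCm38.p6, in which all 10 genes matched, and no protein sequence was used. Named pathway genes were, per list, up to 4 in each direction with the largest change among called genes with separate groups and a mean of at least 1 CPM, and always Gusb, Ugdh, Nr1i2, Ahr, Nfe2l2, Hnf4a, Abcc1 and Abcc3. The result for 1 further gene of that list is not reported here. Other genes were named after their values were seen. The genes and lists were chosen with earlier results of these data known.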

Additional observations from a re-analysis of the deposited data

How the results depend on the processing

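Abcb1b and Ces2g kept their direction and call under each alternative run: log2 fold changes were 0.71 to 0.85 and 2.01 to 3.35 with a replicate left out, and 0.76 to 1.06 and 2.41 to 2.70 otherwise. Ces2g entered the filtered fits through the Folfiri group, so its calls there are no independent support. In the fit without an expression filter it was at 2.41, where 27.2% of all genes were called higher. Of the SN38 handling genes, 2 to 3 were called higher with a replicate left out, 4 with total counts only and with no expression filter, and 2 with at least 1 CPM in 3 samples, where Abcg2 was not tested, and with DESeq2's Wald test. None was called lower. Over all genes, 11021 to 12312 were called with a replicate left out and 10630 to 12742 otherwise. Abcb1a changed sign with total counts only (0.27), with upper quartile scaling (0.045) and without Folfiri replicate 1 (-0.059 to 0.048 over the samples left out), as did Abcc3 (0.16), Krt20 (0.14) and Cd68 (0.082) with total counts only. Cd68 passed without control replicate 1 (-0.28). The sum of Abcb1a and Abcb1b passed with total counts only (0.43) and upper quartile scaling (0.21), and ranged from 0.12 to 0.21 with a replicate left out. Sums of 4 and of all Ces2 genes ranged from 2.02 to 3.42 and from 2.00 to 3.47 in the same way. The log2 ratio of Abcb1a over Abcb1b differed by -0.86 to -0.73 with a sample left out. Per kilobase of bases that no other gene covers, Abcb1a was 4.57 times as abundant as Abcb1b in Folfiri and 8.00 times in control. Beyond the scaling shift of the median given above, the cause was not tested.

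Same-numbered control and Folfiri samples did not deviate together (correlations of 0.04, -0.19 and 0.04). With 3 samples per group these correlations cannot tell whether the cultures were paired. The fit with the replicate block called 11499 genes and the same number of SN38 handling genes higher (3), and the call of each tested one was kept. Abcc4 was the named gene whose call the block changed (0.45, edgeR adjusted p = 0.0191). With the block, the ratio of Abcb1a over Abcb1b differed by -0.80 (exact sign-flip test, p = 0.25, the smallest possible). Ratios and sums that include Ugt1a6a, and ratios of single Ces2 genes other than Ces2g, were not run because of missing rows or means under 10 counts. Depth limits Ces2a, Ces2c, Ces2e and Ugt1a1 to statements on single reads, and Abcc2 to a pooled ratio with a wide interval.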
